A study of Mus musculus with 3 samples.

Results

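The platelet-derived growth factor (PDGF) genes of KO-actin cells and the receptor kinases Egfr, Met, Kit and Axl were examined, 10 genes of the 46603 counted in each library. The members were chosen by symbol: the 2 PDGF receptors Pdgfra and Pdgfrb, the 4 ligands Pdgfa, Pdgfb, Pdgfc and Pdgfd, and 4 other receptors. All 10 symbols were found among the Ensembl genes of the count files. KO-actin cells are mouse embryonic fibroblasts with the genotype Beta-actin KO-NLS, which lack their own β-actin and express a copy of it with a nuclear localization signal. There was 1 group of 3 libraries of polyA RNA, so no comparison between genotypes was made, and no treatment or time point is given. The promoter that drives the tagged β-actin, the number of clones and whether the libraries came from separate cultures are not given in the sources used here, so the spread between libraries may be technical.

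PDGF ligands are secreted as dimers that draw their receptors together, and the receptors then phosphorylate each other and recruit signalling proteins. PDGF-A and PDGF-C act mainly through the α receptor, PDGF-D mainly through the β receptor, and PDGF-B through both. The α receptor is a classical mark of mesenchymal progenitors and the β receptor of pericytes and many cultured fibroblasts. EGFR, MET, KIT and AXL are receptor tyrosine kinases of the same general kind, and they respond to the EGF family, to hepatocyte growth factor, to stem cell factor and to GAS6.

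The libraries held 44383636 to 49932446 counts. Replicate 2 stood apart from the other libraries: 6046 of 13814 genes varied between libraries beyond counting error, and 1737 of 14037 did so without replicate 2. Actb, the targeted gene, had 1078, 1111 and 1066 CPM in replicates 1 to 3, where CPM scales each library to 1000000 counts. Counts per gene do not separate the deleted gene from the tagged copy, so this does not check the genotype. Of 10 fibroblast markers 9 were above 3 counts in every library, a floor set at the limit that a count of 0 allows. Vim, Col1a1 and Fn1 led that list, while Lum had no count in any library and Dcn had 8, 8 and 6 counts, so these fibroblast matrix markers were absent or nearly so. Of the markers of other cell types, 2 of 6 endothelial, 3 of 6 macrophage and 2 of 6 epithelial genes exceeded this floor in each library. The highest of each list, in that order, were Kdr at 2.09, Cd68 at 8.57 and Krt18 at 37.9 CPM on average. The floor corresponded to between 0.0601 and 0.0673 CPM. Levels of different genes were compared as CPM per kilobase of exon. The intervals below cover counting error only.

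Axl was by far the most abundant of the 10 transcripts, Kit was barely detected, and the other 8 lay between them. By mean CPM per kilobase the order was Axl, Pdgfrb, Met, Pdgfa, Pdgfb, Egfr, Pdgfc, Pdgfra, Pdgfd and Kit. Neighbours in this order did not overlap over the 3 libraries, except Pdgfra and Pdgfd. Egfr and Pdgfc were the next closest, with the lowest Egfr library at 2.85 and the highest Pdgfc library at 2.83 CPM per kilobase, and they changed places when the longest transcript or the coding length was used. Pdgfa also moved above Met with the longest transcript, and with the coding length Pdgfa at 63.0 and Pdgfb at 50.3 stood above Pdgfrb at 37.6 CPM per kilobase of coding sequence. Axl stayed the highest and Kit the lowest with each length and without one. Of the 10 genes, 9 had more than 3 counts in every library, and the same number averaged 1 CPM or more. Of all 46603 genes, 15208 had more than 3 counts in every library and 12106 averaged 1 CPM or more. For the 12080 genes with a known length that averaged 1 CPM or more, the median was 7.74 CPM per kilobase and the quartiles were 2.67 and 20.1. Axl and Pdgfrb were above the upper quartile of that group, Met, Pdgfa and Pdgfb lay between the median and the upper quartile, Egfr and Pdgfc between the lower quartile and the median, and Pdgfra and Pdgfd below the lower quartile.

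**Figure D1:**
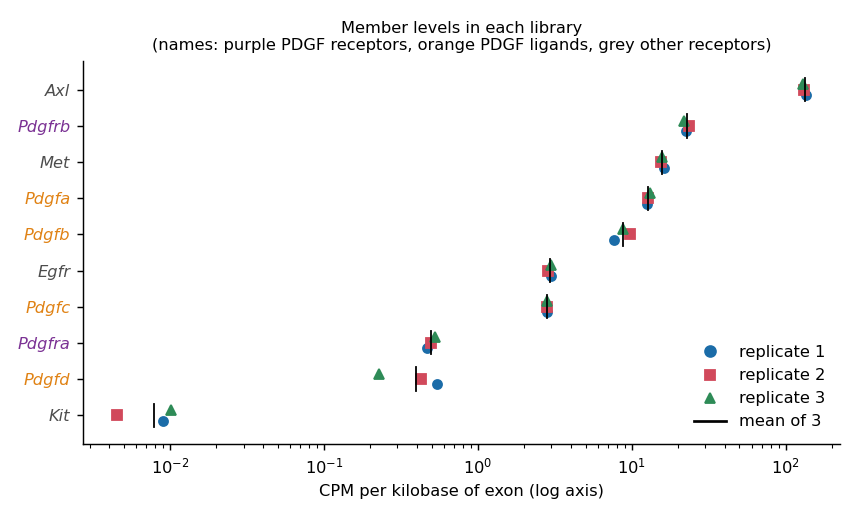
Level of each of the 10 genes in replicates 1, 2 and 3, in CPM per kilobase of exon on a log axis, with the mean of the 3 libraries as a black bar. Axl sits near 133, Pdgfrb near 22.7 and Kit near 0.00787, and only Pdgfd, Pdgfb and Kit show a visible spread between libraries.

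The α and β receptors were expressed at very different levels. Pdgfrb, which encodes the β receptor, had 124, 129 and 120 CPM in replicates 1 to 3, a mean of 125 ± 4.61 CPM (SD, n = 3). Pdgfra, for the α receptor, had 4.69, 4.94 and 5.28 CPM in the same order, a mean of 4.97 ± 0.295 CPM (SD, n = 3). The highest Pdgfra library was thus far below the lowest Pdgfrb library. On GRCm38, Pdgfrb (ENSMUSG00000024620) spans chromosome 18 from 61045150 to 61085061 on the plus strand, with 5478 bases of exon, and Pdgfra (ENSMUSG00000029231) spans chromosome 5 from 75152292 to 75198215 on the plus strand, with 10024 bases of exon. Per kilobase, Pdgfrb had 22.7 ± 0.841 and Pdgfra 0.495 ± 0.0295 (SD, n = 3), which made the level of Pdgfrb 45.9-fold higher. Pdgfra therefore contributed 2.14% ± 0.178 (SD, n = 3) of the PDGF receptor transcripts counted per kilobase. The log2 ratio of Pdgfra to Pdgfrb was -5.60, -5.58 and -5.38 in replicates 1 to 3, with a mean of -5.52 and an SD of 0.12, and the direction was the same in 3 of 3 libraries. The two-sided p from exact sign-flip permutation was 0.25, which is the smallest that 3 libraries allow and was also the value for each of the 7 other ratios below. The size of this ratio depended on length, since it was -4.65 without division by length. In bulk RNA a low level in every cell and a high level in few cells cannot be told apart.

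Markers of pericytes and vascular smooth muscle, which are among the cells known to carry the β receptor, were mostly near the floor. Of 8 pericyte and vascular smooth muscle markers 4 were above 3 counts in every library, and their summed level ranged from 7.49 to 8.83 CPM per kilobase. Most of that sum came from Notch3 at 5.30 and Des at 2.76 CPM per kilobase. Kcnj8, a channel gene typical of pericytes, had no count in any library, Higd1b had 0, 1 and 0 counts, and Rgs5 had 4, 6 and 10 counts. Of 5 oligodendrocyte precursor markers, a cell type known for the α receptor, 2 exceeded the floor in each library, and the list summed to between 0.0247 and 0.161 CPM per kilobase. Olig2 had 0, 0 and 1 counts. What part such cells had in the levels of the receptors was not tested.

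Among the ligands, Pdgfa and Pdgfb made up most of the transcripts. Pdgfa (ENSMUSG00000025856), on chromosome 5 from 138976014 to 138997370 on the minus strand, had 39.0, 39.7 and 40.8 CPM in replicates 1 to 3, a mean of 39.9 ± 0.895 CPM (SD, n = 3). Pdgfb (ENSMUSG00000000489), on chromosome 15 from 79995874 to 80014977 on the minus strand, had 32.1, 40.3 and 36.7 CPM, a mean of 36.4 ± 4.14 CPM (SD, n = 3). On the CPM scale the libraries of these ligands overlapped, and per kilobase they did not, with 12.8 ± 0.287 for Pdgfa and 8.74 ± 0.995 for Pdgfb (SD, n = 3).

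Pdgfc and Pdgfd encode the ligands that are secreted in a latent form and activated by proteolysis. Pdgfc (ENSMUSG00000028019), on chromosome 3 from 81036416 to 81214040 on the plus strand, had 14.4, 14.3 and 14.4 CPM, and it was the steadiest member, with an SD of log2 CPM of 0.0062. Pdgfd (ENSMUSG00000032006), on chromosome 9 from 6168584 to 6378850 on the plus strand, had 85, 66 and 32 counts, or 1.70, 1.34 and 0.718 CPM. Replicate 3 was the low library for Pdgfd. By share of ligand transcripts per kilobase, Pdgfa held 51.7% ± 1.81, Pdgfb 35.3% ± 2.55, Pdgfc 11.4% ± 0.523 and Pdgfd 1.62% ± 0.689 (SD, n = 3).

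The Pdgfa value is uncertain, because 26.1% of its exonic bases overlap 6330403L08Rik, a gene on the opposite strand with 856, 923 and 770 counts of its own. Whether counting used the strand is not given, so reads of the overlap cannot be assigned to either gene with certainty. Overlaps covered 6.50% of the exonic bases of Pdgfra and 2.89% of those of Pdgfc. The genes they overlap had no count, apart from 1 count of Mir7025 in replicate 2. The 7 other members had no exonic overlap. Of the 50-base windows of the transcripts, 21.3% were shared with another gene for Pdgfa, 4.93% for Pdgfra and 1.95% for Pdgfc. For these members most sharing was with an overlapping gene on the opposite strand. The share was 0.222% for Egfr and 0% for Pdgfrb, Pdgfb, Pdgfd, Met, Kit and Axl.

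The balance of PDGF ligand and receptor transcripts depended on the length by which counts were divided. Per kilobase of exon, the 4 ligands summed to 24.7 ± 1.06 and the 2 receptors to 23.2 ± 0.827 (SD, n = 3). The log2 ratio of receptors to ligands was -0.03, -0.09 and -0.15 in replicates 1 to 3. The mean of -0.09 became 0.50 without division by length and -1.71 with the coding length, where the ligands summed to 128 ± 6.20 and the receptors to 39.2 ± 1.35 CPM per kilobase (SD, n = 3), so no order between receptors and ligands can be given. The ligands that act mainly through the α receptor outweighed the others, with 15.6 ± 0.291 CPM per kilobase for Pdgfa and Pdgfc together against 9.14 ± 0.937 for Pdgfb and Pdgfd (SD, n = 3). This log2 ratio was 0.90, 0.62 and 0.81, with the same direction in 3 of 3 libraries, and it rests on the Pdgfa value with its antisense overlap. On the receptor side almost all of the level was that of Pdgfrb.

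Genes that process or bind PDGF ligands were expressed, with the exception of Pcsk5. In every library 7 of 8 such genes exceeded the floor. Sparc, whose product binds PDGF-B, had 1555 ± 42.5 CPM (SD, n = 3). Plat, for the tissue plasminogen activator that can activate PDGF-C, had 42.0 ± 1.99 CPM, and Plau, for urokinase, which can activate PDGF-D, had 61.2 ± 0.607 CPM (SD, n = 3). Furin, a proprotein convertase that cleaves PDGF-A and PDGF-B precursors, had 105 ± 5.96 CPM and Pcsk6, another convertase, 3.71 ± 0.670 CPM (SD, n = 3). Lrp1, a partner of the β receptor, had 375 ± 9.06 CPM and Nrp1, a co-receptor of several growth factors, 92.8 ± 2.54 CPM (SD, n = 3). Pcsk5 had 2, 0 and 1 counts.

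Axl (ENSMUSG00000002602) exceeded every other member. It lies on chromosome 7 from 25757273 to 25788705 on the minus strand and had 34028, 32893 and 29195 counts, or 681, 666 and 655 CPM in replicates 1 to 3. The mean was 668 ± 13.1 CPM, or 133 ± 2.61 CPM per kilobase (SD, n = 3), rank 312 of 46091 genes with a known length. Per kilobase it was 5.83-fold above Pdgfrb, the next member. Axl held 76.0% ± 0.239 of the transcripts of the 6 member receptors, and Pdgfrb 13.0% ± 0.437, Met 9.06% ± 0.202 and Egfr 1.68% ± 0.0541 (SD, n = 3). The summed level of Egfr, Met, Kit and Axl was 151 ± 2.87 CPM per kilobase (SD, n = 3), and the 2 PDGF receptors were 6.52-fold lower, with a log2 ratio of -2.74, -2.64 and -2.73 in replicates 1 to 3. Without Axl no order between the groups can be given, since it depended on the length used. Egfr, Met and Kit together had 18.3 to 19.2 CPM per kilobase of exon and the PDGF receptors 22.5 to 24.1. With the coding length their libraries overlapped, with means of 38.5 and 39.2, and without division by length Egfr, Met and Kit were higher, with 155 ± 3.70 against 129 ± 4.47 CPM (SD, n = 3). This split without Axl was chosen after the values were seen.

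Met (ENSMUSG00000009376), the hepatocyte growth factor receptor, lies on chromosome 6 from 17463800 to 17573980 on the plus strand. It had 124, 118 and 121 CPM, a mean of 121 ± 2.97 CPM and 15.8 ± 0.386 CPM per kilobase (SD, n = 3). On the CPM scale Met and Pdgfrb were close and their libraries overlapped, and the longer exonic sequence of Met, 7679 bases, separated them per kilobase. Egfr (ENSMUSG00000020122), on chromosome 11 from 16752203 to 16918158 on the plus strand, had 33.6, 32.2 and 33.7 CPM, a mean of 33.2 ± 0.825 CPM and 2.93 ± 0.0729 CPM per kilobase (SD, n = 3). Egfr was thus well below Met and well above Pdgfra in every library.

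Kit (ENSMUSG00000005672), the stem cell factor receptor of mast cells, melanocytes and germ cells, lies on chromosome 5 from 75574916 to 75656722 on the plus strand. It had 4, 2 and 4 counts in replicates 1 to 3, so that replicate 2 was within the floor. The 10 counts correspond to 0.0695 CPM with an exact 95% Poisson interval from 0.0333 to 0.128 CPM. Axl was 17017-fold above Kit per kilobase in the summed counts, with an exact 95% binomial counting interval from 9253 to 35488. The ratio was 10597 with the coding length and 9612 without division by length. The mast cell, blood and melanocyte markers examined were low or absent, and no list of germ cell markers was examined. None of the 7 mast cell and blood markers was above 3 counts in any library, and of 6 melanocyte markers, Pmel with 12, 27 and 36 counts was the only gene above the floor in every library.

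The ligands of the other receptors were present at very different levels. Axl was accompanied by Gas6, its ligand, at 99.1 ± 7.24 CPM or 38.9 ± 2.84 CPM per kilobase (SD, n = 3), the highest of the 11 ligands examined. The log2 ratio of Axl to Gas6 was 1.86, 1.65 and 1.81 per kilobase in replicates 1 to 3, and the mean rose from 1.77 to 2.75 without division by length. Pros1, whose product acts mainly on the relatives of AXL, had 22.6 ± 0.715 CPM (SD, n = 3).

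Met stood nearly without the transcript of its ligand. Hgf had 15, 8 and 14 counts, a mean of 0.259 ± 0.0842 CPM (SD, n = 3), and Met was 442-fold above it per kilobase in the summed counts, with an exact 95% counting interval from 320 to 628. With the longest transcript as length the ratio was 241, and with the coding length 249. The mean of the log2 ratios of the libraries was 8.84, and 7.96 with the longest transcript. Kit showed the reverse. Kitl, for stem cell factor, had 28.4 ± 2.13 CPM (SD, n = 3) and was 617-fold above Kit per kilobase in the summed counts, with an interval from 335 to 1288. With the floor of 3 counts in place of the 2 counts of Kit in replicate 2, the log2 ratio of Kit to Kitl was -9.17, -9.36 and -8.89 in replicates 1 to 3. The ratio of Kitl to Kit in the summed counts was 380 with the longest transcript and 1468 with the coding length, the latter outside the counting interval, which does not cover the choice of length.

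Egfr was present together with several of its ligands. Hbegf held 54.1% ± 3.48 of the EGF family transcripts per kilobase, Ereg 21.0% ± 2.02 and Tgfa 18.2% ± 0.186 (SD, n = 3). Btc, Areg, Egf and Epgn made up the rest, and Epgn was above the floor in replicate 3 alone, with 1, 3 and 4 counts. The 7 ligands summed to 12.1 ± 0.397 CPM per kilobase (SD, n = 3). The log2 ratio of Egfr to this sum was -2.08, -2.05 and -2.03 in replicates 1 to 3. The mean was -0.85 without division by length and -3.55 with the coding length.

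**Figure D2:**
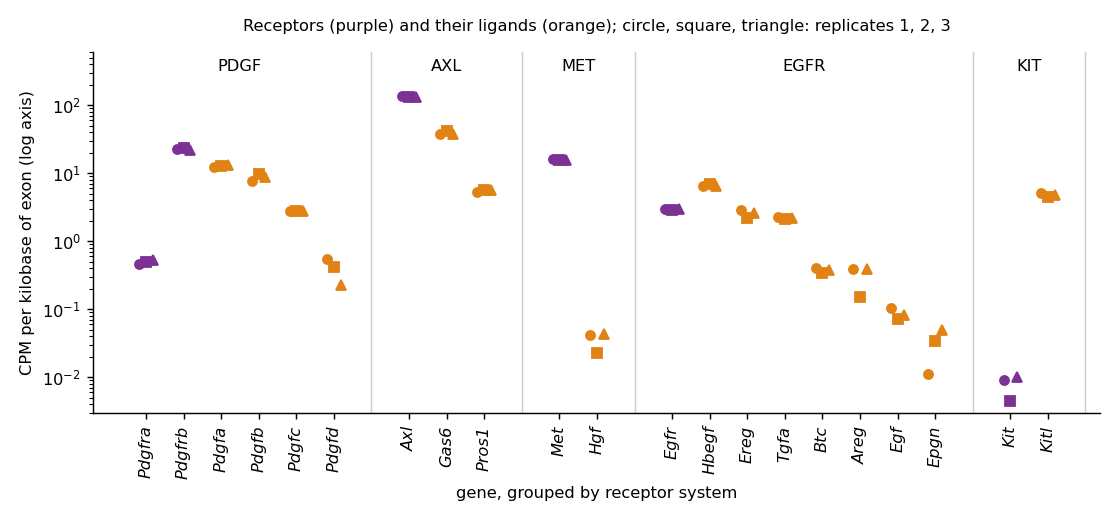
Levels of the receptors in purple and of their ligands in orange, in CPM per kilobase of exon on a log axis, with 1 symbol for each of the 3 libraries. Axl and Gas6 are both high at 133 and 38.9, Met at 15.8 stands over Hgf at 0.0360, and Kit at 0.00787 stands far below Kitl at 4.81.

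Set against the whole family, Axl ranked 1 of 58 receptor tyrosine kinases per kilobase, Pdgfrb 6, Met 10, Egfr 18, Pdgfra 29 and Kit 43. Of the 58 kinases, 37 exceeded the floor in each library, 33 had a mean of at least 1 CPM, and 12 had at most 3 counts in each library. Axl alone held 28.4% ± 0.577 of the summed level of the family, Pdgfrb 4.87% ± 0.0934, Met 3.39% ± 0.123 and Pdgfra 0.106% ± 0.00767 (SD, n = 3). The kinases between Axl and Pdgfrb were Epha2 at 54.2, Ddr1 at 46.6, Ryk at 42.6 and Ptk7 at 26.0 CPM per kilobase. Fgfr1 at 22.7 and Pdgfrb lay so close that their ranges overlapped, as did those of Met, Ddr2 and Erbb2, which all had a mean of 15.8 CPM per kilobase. The rest of the 10 highest was Ephb4 at 19.5 CPM per kilobase.

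**Figure D3:**
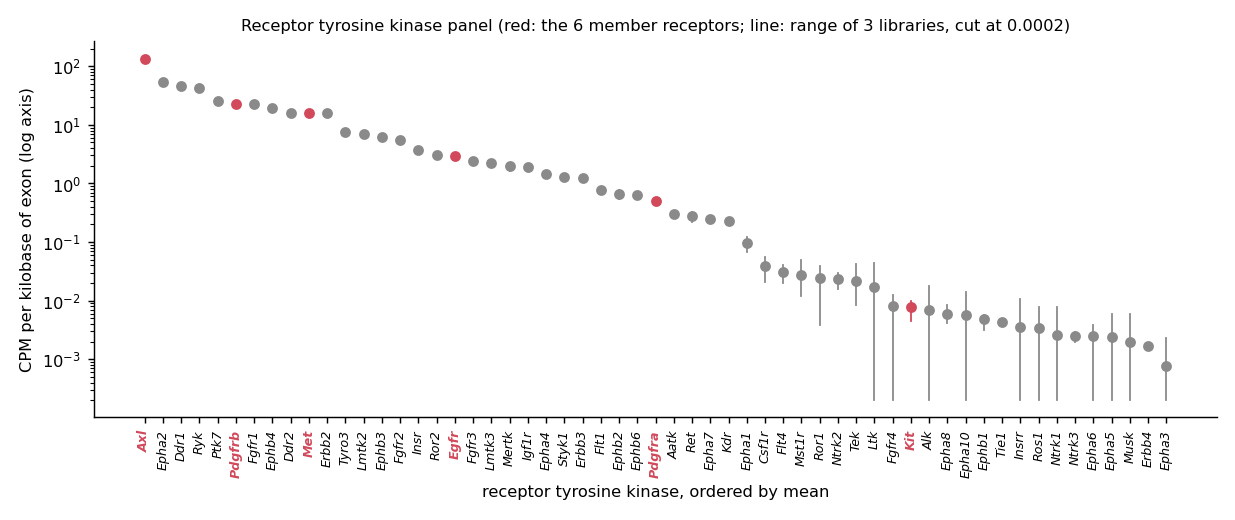
Mean level of the receptor tyrosine kinases in CPM per kilobase of exon on a log axis, ordered by mean, with the range of the 3 libraries as a line and the 6 member receptors in red. Flt3 had no count and is left out; Axl at 133 is followed by Epha2 at 54.2, and Kit lies among the kinases with few counts.

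Within each receptor family the levels were uneven. In the PDGF receptor family, Pdgfrb stood above Pdgfra, and Flt3 had no count in any library. Csf1r, whose gene begins 15.5 kb after Pdgfrb, had 16, 6 and 11 counts. Kit, of the same family, had 4, 2 and 4 counts. Pdgfrb was 573-fold above Csf1r per kilobase in the summed counts, with an exact 95% counting interval from 408 to 833. In the EGF receptor family Erbb2, the partner that has no known ligand of its own, held 79.2% ± 0.519 of the transcripts per kilobase, Egfr 14.7% ± 0.454 and Erbb3 6.12% ± 0.298 (SD, n = 3), and Erbb4 had 1 count in each library. In the family of Axl, Tyro3 and Mertk, Axl held 93.4% ± 0.356, Tyro3 5.22% ± 0.233 and Mertk 1.37% ± 0.208 (SD, n = 3). Mst1r, the relative of Met, had 3, 5 and 11 counts.

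Downstream genes that the receptors have in common exceeded the floor in every library, at levels that ranged widely. All 31 genes of receptor-proximal signalling exceeded the floor in each library and averaged 1 CPM or more, led by Akt1 at 81.0, Crk at 53.5 and Map2k2 at 51.7 CPM per kilobase. All 17 genes of receptor feedback and turnover were above the floor too, led by the phosphatase genes Dusp4 at 41.1, Dusp1 at 25.1 and Ptpn12 at 22.9 CPM per kilobase. The lowest of these was Spry4 at 0.382. The 16 genes of the immediate early response to growth factors were also above the floor, led by Srf at 122, Junb at 88.6 and Ier2 at 61.8 CPM per kilobase. Egr2 at 1.32, Fosb at 0.582 and Egr3 at 0.533 were the lowest of that list. Spry4 and these 3 genes lay below 2.67, the lower quartile of the genes that averaged 1 CPM or more. No added stimulation was part of the design, so these values describe the cells as they were collected. The paper's ChIP-Seq methods give culture with fetal bovine serum for the MEFs, and levels without serum were not measured.

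The receptor genes Pdgfra, Kit and Kdr are neighbours on chromosome 5, and their levels were unlike. Kit starts 377 kb after the end of Pdgfra. The near end of Kdr, a minus-strand gene for a receptor of vascular endothelial growth factor, lies 276 kb beyond Kit. Gsx2, 74.4 kb on the other side of Pdgfra, had no count in any library. Per summed counts and kilobase, Pdgfra was 63.4-fold above Kit, with an exact 95% counting interval from 34.3 to 133, and Kdr 29.8-fold above Kit, from 16.0 to 62.8. Axl lies 2.52 kb from Hnrnpul1, which had 28.8 ± 1.64 CPM per kilobase (SD, n = 3), and 13.8 kb from Cyp2s1, which had a mean of 0.0168. Met lies between Cav1 at 66.3 and Capza2 at 33.2 CPM per kilobase, both above it.

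The 250 bases before the RefSeq transcript start on GRCm38.p6 are shown for Axl, the highest member, for Kit, the lowest, and for Pdgfra, which neighbours Kit and had the lower level of the 2 PDGF receptors. Capitals mark CG dinucleotides, and each sequence is given 5′ to 3′ on the strand of its gene. The bases checked after the transcript start were found in an annotated transcript of the gene for Axl and Kit. They were not found for Pdgfra, whose window ends before the annotated gene start at 75152292. The Axl window also ends before its annotated gene start, at 25788705 on the minus strand. The Kit window runs past its annotated gene start at 75574916, so its last bases lie within the gene. The Axl window is chr7:25788734-25788983 on the minus strand, the Kit window, the upstream one of 2 that differ by 4 bases, chr5:75574737-75574986 on the plus strand, and the Pdgfra window chr5:75152001-75152250 on the plus strand.
Axl: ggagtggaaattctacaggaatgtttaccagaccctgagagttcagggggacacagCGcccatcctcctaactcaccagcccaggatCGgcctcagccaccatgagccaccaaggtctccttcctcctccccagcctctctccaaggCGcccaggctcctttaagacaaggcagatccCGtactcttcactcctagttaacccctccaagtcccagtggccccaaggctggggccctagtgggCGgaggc
Kit: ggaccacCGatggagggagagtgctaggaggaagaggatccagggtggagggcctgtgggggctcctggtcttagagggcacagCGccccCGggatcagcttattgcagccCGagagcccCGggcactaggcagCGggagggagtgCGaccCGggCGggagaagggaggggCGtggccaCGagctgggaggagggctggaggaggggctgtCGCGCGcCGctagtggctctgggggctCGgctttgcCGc
Pdgfra: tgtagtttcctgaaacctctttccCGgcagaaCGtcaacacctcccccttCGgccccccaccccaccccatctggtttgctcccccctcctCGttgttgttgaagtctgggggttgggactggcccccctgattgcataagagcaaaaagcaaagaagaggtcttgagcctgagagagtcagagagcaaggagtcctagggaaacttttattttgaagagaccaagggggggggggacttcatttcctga

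The lowest member had more CG dinucleotides in this window than the highest. The windows do not lie alike against the annotated gene starts, and some of the CG dinucleotides counted for Kit lie within the gene. The Axl window held 5 and the Pdgfra window 4, against 17 in that of Kit, with ratios of observed to expected CG of 0.233, 0.216 and 0.601. Over all 32851 windows the median was 6 and the median ratio 0.374. Windows were matched for 8 of the 10 members. A GC box, GGGCGG on either strand, was found in the windows of Axl, Kit, Egfr, Met and Pdgfa, and 32.7% of all windows hold it. A TATA box, TATAAA on either strand, was found for Pdgfd alone, and 12.4% of all windows hold it. The bases checked after the Pdgfd transcript start were not found in an annotated transcript of the gene. Its window ends at 6168485, before the annotated gene start at 6168584. An AP-1 site, TGANTCA on either strand, was found for Met alone, and 6.75% of all windows hold it. The Met window runs past the annotated gene start at 17463800, and this site lies beyond that start. The Pdgfa windows lie inside the annotated span of that gene. These matches describe the sequence and are not sites of measured binding.

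**Figure D4:**
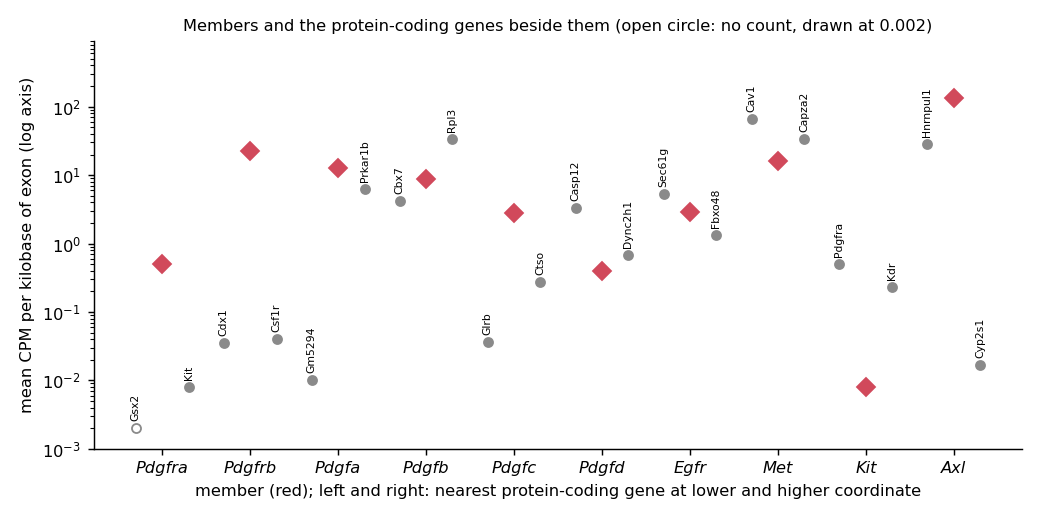
Mean level of each member in red and of the nearest protein-coding genes on either side in grey, in CPM per kilobase of exon on a log axis. Kit at 0.00787 lies below Pdgfra and Kdr, and Axl at 133 lies above both Hnrnpul1 at 28.8 and Cyp2s1 at 0.0168.

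The spread of the members between libraries was small for most of them. Of the 9 members with at least 10 counts in every library, 4 varied by more than counting error (adjusted p below 0.05), against 43.8% of all 13814 genes tested. These were Pdgfd, Pdgfb, Axl and Pdgfrb. A call together with a difference of more than 1.5-fold between the highest and lowest library was made for 1 member, Pdgfd, against 3.80% of all genes. This test compares libraries of the same genotype and says nothing of an effect of β-actin. Among the lists, 13 of 35 tested kinases varied in this way, 3 of 8 ligands of the other receptors, 5 of 7 genes of PDGF processing and binding, 18 of 31 of proximal signalling, 7 of 17 of feedback and turnover and 11 of 16 of the immediate early response.

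Pdgfd was 2.37-fold higher in replicate 1 than in replicate 3, with a Benjamini-Hochberg adjusted p of 0.000536 against edgeR TMM library sizes. Its call was lost without replicate 3, the low library, and at a minimum of 100 counts it could not be tested. Pdgfb was 1.26-fold higher in replicate 2 than in replicate 1, with an adjusted p of 9.68e-10 in the same test, and it was called under all 8 alternatives tried. Axl differed by 1.04-fold at most, with an adjusted p of 2.96e-05 and the call was lost without replicate 1. Pdgfrb differed by 1.08-fold at most, with an adjusted p of 0.00136, and was not called without replicate 2. Met had an adjusted p of 0.0600 and was called with library totals or without replicate 3.

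The values of replicate 2 are set here beside the GC content of the members' longest transcripts. Pdgfb, with the highest GC content of the members at 60.0%, was 0.23 higher in replicate 2 than in the mean of replicates 1 and 3 on the log2 scale, and Pdgfrb, at 54.9%, was 0.08 higher. Egfr at 44.4% and Met at 45.5% differed by -0.06 and -0.05. Axl, at 54.2%, differed by -0.0056, and Pdgfd, at 39.9%, by 0.14. The differences were -0.0067 for Pdgfa at 52.1%, -0.010 for Pdgfc at 50.7% and -0.012 for Pdgfra at 48.1%. When library sizes were scaled within 50 bins of GC content, Pdgfb, Pdgfd and Axl were still called and Pdgfrb was not, and 4116 of 13770 genes were called in all.

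**Figure D5:**
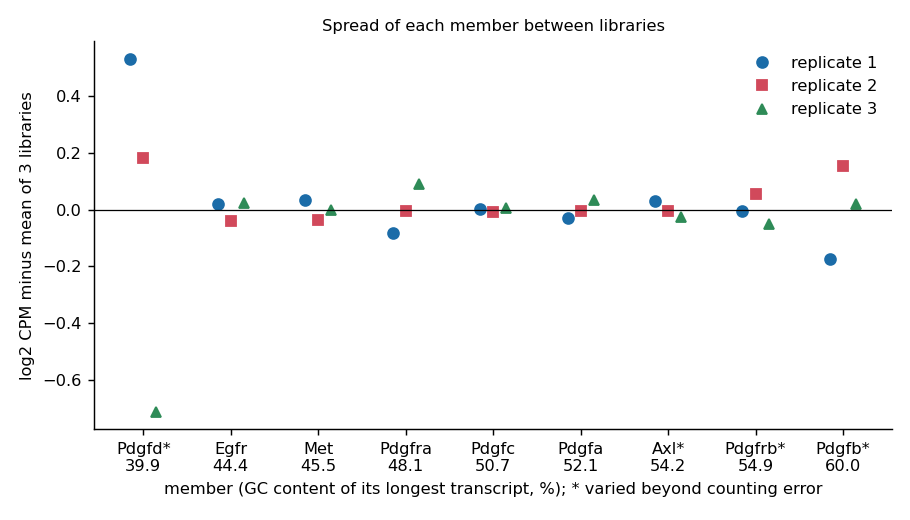
Log2 CPM of each tested member in each library minus its mean over the 3 libraries, ordered by the GC content of the longest transcript, with a star on the 4 members that varied beyond counting error. Replicate 3 is low for Pdgfd and replicate 1 low for Pdgfb, and the other members stay within a narrow band.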

How the data were processed

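RNA-Seq of polyA RNA from 3 libraries of KO-actin cells was analysed. Raw counts per Ensembl gene, not normalized, are what the authors deposited. The submitters' processing notes name Trimmomatic, FastQC, HISAT2 and HTSeq and the builds mm10 and GRCm38; their settings, the annotation and the use of strand are not given in the sources used here. Gene symbols, positions, lengths and GC content were read from the GENCODE M21 annotation of GRCm38, which matched 46091 of 46603 genes; the other 512 held 0.0544% of the counts. Promoter windows came from RefSeq on GRCm38.p6.

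CPM used library sizes scaled by TMM in edgeR 4.0.16 (R 4.3.3), on genes that reached 10 counts in every library. DESeq2 1.42.0 size factors and library totals were alternatives. CPM was divided by the union of exons in kilobases. Variation between libraries was assessed with a chi-square test (2 degrees of freedom) of the counts against library sizes, adjusted by Benjamini-Hochberg over all genes tested, and the script was checked on simulated data. Ratios were tested by an exact sign-flip permutation test. Python 3.11.15, numpy 2.4.6, pandas 2.3.3, scipy 1.17.1 and matplotlib 3.10.9 were used.

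The members and gene lists were chosen with earlier results of these data known. Genes named were the members, their ligands, relatives and chromosomal neighbours, and marker genes. The 10 highest and those at the floor of the kinase list, and the 3 highest of other lists, were also named. Genes of the ligand processing list, 6330403L08Rik, Mir7025 and the lowest genes of the feedback and immediate early lists were named in addition. The neighbours were the nearest protein-coding genes among those in the count files.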

Additional observations from a re-analysis of the deposited data

How the results depend on the processing

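The choice of length moved the ratios between genes most. Without division by length the log2 ratio was -4.65 for Pdgfra to Pdgfrb, 0.50 for PDGF receptors to PDGF ligands, where the direction reversed, 0.53 for Pdgfa and Pdgfc to Pdgfb and Pdgfd, -8.55 for Kit to Kitl, 2.75 for Axl to Gas6 and -0.85 for Egfr to the EGF family. With the longest transcript it was -4.98 for Pdgfra to Pdgfrb, -2.91 for PDGF receptors to Egfr, Met, Kit and Axl, -0.61 for PDGF receptors to ligands, 7.96 for Met to Hgf, -8.44 for Kit to Kitl, 2.01 for Axl to Gas6 and -2.44 for Egfr. With the coding length these 7 ratios were -4.63, -2.88, -1.71, 8.01, -10.4, 2.36 and -3.55, and Pdgfa and Pdgfc to Pdgfb and Pdgfd gave 0.58. These moves follow from the lengths themselves.

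Leaving out 1 replicate gave between 1737 and 4811 genes that varied between libraries, against 6046; the lowest was without replicate 2. Another scaling changed the mean CPM of a member by at most 0.0879%. A mean of 3 shifts by 0.577 SD at most when 1 value is dropped, so this says nothing of its stability. No paired analysis was possible because only 1 group was measured. Depth limits what can be said of Kit, Hgf and Epgn, which had few counts.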
